A study of Mus musculus with 18 samples.

Results

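The comparison concerns extraocular muscle, the small muscles that move the eye, in dko mice against mdx mice. It rests on 6 of the 18 arrays of the study, namely the 3 whose titles name dko extraocular muscle and the 3 whose titles name extraocular muscle of mdx, the control. Arrays were paired by the replicate number in their titles, and all probe sets other than hybridization controls were described. The mdx mice lack dystrophin. By usual usage dko mice lack both dystrophin and utrophin, so that the loss of dystrophin is shared, although no label writes this out. All samples were total RNA of muscle at 8 weeks of age, and the study measured leg muscle and heart in the same layout of 3 arrays for each genotype. The labels do not give the alleles, the strain, the sex or whether replicates were separate animals or pools. The p-values therefore cover the spread among these samples alone, and that spread may be technical.

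Dystrophin and its relative utrophin link the actin cytoskeleton of a muscle fibre to a complex in the membrane and, through it, to the extracellular matrix. Without that link, limb and diaphragm fibres are damaged by contraction, die, draw in macrophages and regenerate, whereas extraocular muscle is known to be spared when dystrophin alone is missing. Utrophin can stand in for dystrophin along the membrane, and extraocular muscle also differs from limb muscle in that adult fibres keep embryonic forms of myosin.

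The label of the tissue was checked on regional and fibre genes. Hoxc9, a trunk and limb patterning gene, read 66.6 to 175.8 intensity units over the 6 extraocular arrays, against 649.6 to 1203.4 over the 6 leg arrays. Those ranges did not overlap. Hoxa9 read 50.6 to 390.8 in extraocular muscle and 306.4 to 666.5 in leg, with overlap, as did Hoxd8 at 567.4 to 1287.9 and 729.1 to 1394. Embryonic myosin Myh3 read 9979.7 to 21624.8 over the extraocular arrays, against 1345 to 11845.7 in leg, which overlapped, and 21.3 to 105.9 in heart, which did not. Of 4 head muscle markers Six2 was the one analysed here, at 467.3 to 1783 in extraocular muscle and 435 to 1000.1 in leg, so that it did not separate the tissues. Other limb genes had the higher median in extraocular muscle, with overlapping ranges. Tbx15 had a median of 8119 in extraocular muscle against 3408 in leg, Pitx1 1784 against 935 and Hoxd10 660 against 250. The regional markers therefore separated extraocular muscle from leg only in part.

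The arrays numbered 3 stood apart from those numbered 1 and 2. In extraocular muscle their medians were 551.95 in dko and 549.65 in mdx, while the other 4 medians lay between 612.6 and 671.8. Deviations from the group mean correlated, across probe sets, at 0.61, 0.404 and 0.741 between dko and mdx extraocular arrays numbered 1, 2 and 3, and at -0.628 to 0.139 between arrays of different numbers. For this reason the replicate number within tissue was a block in the fit. Differences are given as dko minus mdx on a log2 scale after an offset of 166.7 intensity units was added, which makes the change of dim probe sets smaller, and each has its standard error (SE) from limma, whose variance is pooled over the 9 blocks of all 18 arrays and so is not that of the 3 pairs alone. Fold changes are taken from these log2 differences, so they include the offset and for dim probe sets are smaller than ratios of the intensities. A probe set was called when its limma p, adjusted by Benjamini-Hochberg over all 8888 probe sets tested, was under 0.05.

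Utrophin RNA was lower in dko extraocular muscle. The Utrn probe set 92507_at read 279.8, 220.2 and 414.3 on dko arrays 1, 2 and 3, and 553.3, 604.6 and 1086.5 on mdx arrays 1, 2 and 3. Every dko value lay below every mdx value, and in both genotypes array 3 was the highest. The log2 difference was -0.93 (SE 0.13, limma adjusted p = 0.0333), 1.91-fold lower in dko with the offset added. The second Utrn probe set, 92508_s_at, read 221.5, 270.7 and 345.1 in dko and 855.8, 379.2 and 1005.2 in mdx. Its groups did not overlap either, but its difference of -0.97 did not pass (adjusted p = 0.418), with pair 2 at -0.32 against -1.40 and -1.20 in pairs 1 and 3. Dmd, which encodes dystrophin, read 486.4, 227.6 and 185.9 in dko and 682.3, 332.6 and 394.2 in mdx. These groups overlapped, and the difference of -0.46 did not pass (adjusted p = 0.551). Which exons the Utrn probe sets read is not known here, so that the low values check the labels only in part.

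Of 8888 probe sets tested, 14 were called in dko extraocular muscle (0.158%). Of these, 12 were higher (0.135% of those tested) and 2 were lower (0.0225%). The higher ones carried the macrophage genes Ctss, Lgals3, Lilr4b and Mpeg1, the muscle genes Myom2, Ankrd1 and Myl4, the calcium-binding gene S100a4, the channel subunit Kcne1l, Ms4a6c and 2 probe sets without a single gene symbol. The lower ones were Utrn and Ucp1. All 14 had the same sign in 3 of 3 pairs, and in 12 of them the dko and mdx values did not overlap. Adjusted p ran from 0.0316 to 0.0481, and the probe set next in rank had 0.0816. Across all probe sets tested, 717 (8.07%) had an unadjusted p under 0.05, 368 of them higher (4.14%) and 349 lower (3.93%). Of all tested, 266 (2.99%) had every dko array above every mdx array, and 236 (2.66%) the reverse. In 14.6% dko was higher in 3 of 3 pairs and in 15.9% lower, 48.8% of the differences were positive, and the median difference was -0.006.

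**Figure D1:**
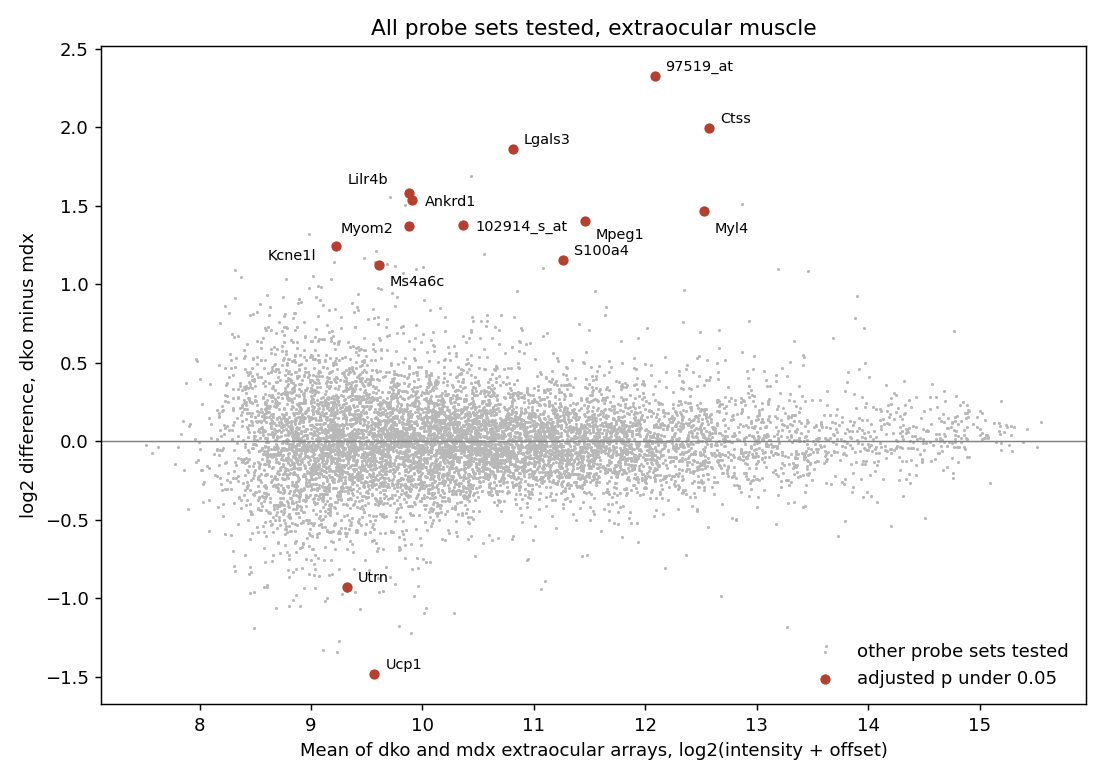
Log2 difference between dko and mdx extraocular muscle (vertical axis) against the mean log2 signal of the 6 arrays (horizontal axis) for the 8888 probe sets tested. Red points are the 14 with an adjusted p under 0.05: 12 lie between 1.13 and 2.33 and 2 lie at -0.93 (Utrn) and -1.48 (Ucp1).

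The calls rested on the pairing, on few arrays and on a variance shared with leg and heart. In the same paired fit of only the 6 extraocular arrays 0 passed, the 14 had an adjusted p of 0.268 to 0.402, and 664 probe sets had an unadjusted p under 0.05. Without the block, 2 of 8888 probe sets were called (0.0225%), Ctss and Myom2, both with an adjusted p of 0.0203, and with the block, dropping an array numbered 1 left 0 calls, dropping one numbered 2 left 4 and dropping one numbered 3 left 2. Without the block the other 12 had an adjusted p of 0.125 (97519_at) to 1 (Ucp1 and Kcne1l), and with the block 0 passed when the arrays numbered 3 were left out of all 6 groups. The sign of the 14 differences could not change in these fits, because all 14 had the same sign in 3 of 3 pairs.

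**Figure D2:**
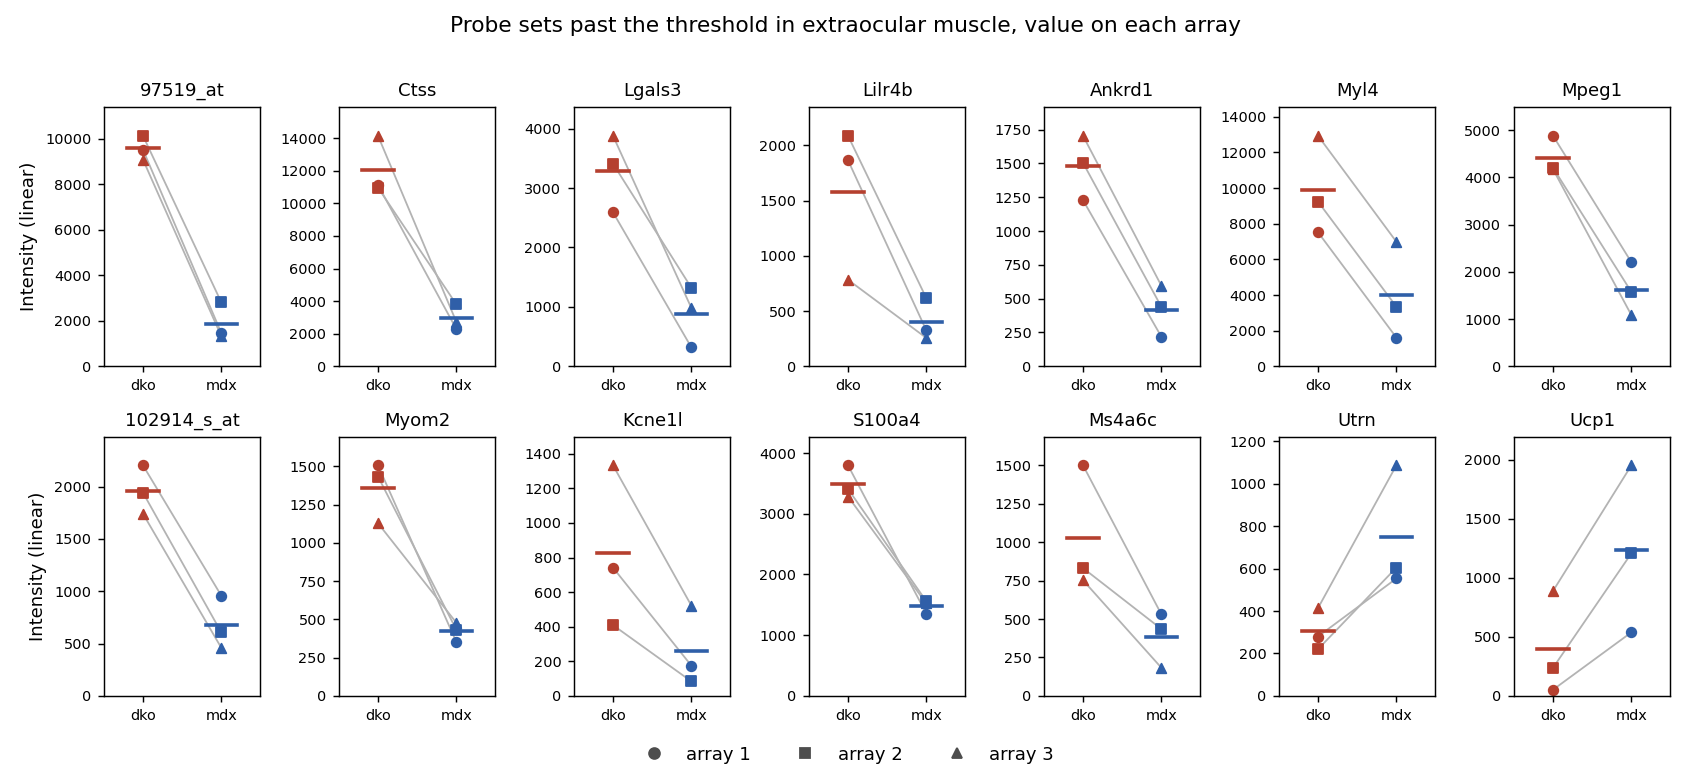
Intensity on a linear scale from 0 for each of the 14 called probe sets, dko on the left and mdx on the right of each panel. Symbols give the array number, grey lines join the arrays of a number and bars mark the group mean of 3 arrays. Values of 12 panels separate completely, and those of Kcne1l and Ucp1 overlap between genotypes while every line runs the same way.

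Macrophage genes made up the most numerous group among the named calls. Ctss is the gene of cathepsin S, which trims the invariant chain of class II molecules in the lysosomes of antigen-presenting cells. It read 11121.7, 10961.6 and 14143.0 on dko arrays 1, 2 and 3, and 2290.6, 3805.3 and 2735.0 on mdx arrays 1, 2 and 3. The lowest dko array lay far above the highest mdx array. Ctss rose by 2.00 on the log2 scale (SE 0.23, limma adjusted p = 0.0316), a 3.99-fold rise. That was the largest rise of a named gene. Promoters of the called genes in the macrophage and stretch lists were searched for short motifs. Only those with a match, of Ctss and Ankrd1, are printed. The 300 bases for Ctss, 250 before and 50 after the RefSeq start, lie on the plus strand of GRCm38.p6 at chr3:95526536-95526835. Capitals mark a match, on the minus strand, to GAGGAAGT, letters of the kind bound by the myeloid factor PU.1.
Ctss promoter: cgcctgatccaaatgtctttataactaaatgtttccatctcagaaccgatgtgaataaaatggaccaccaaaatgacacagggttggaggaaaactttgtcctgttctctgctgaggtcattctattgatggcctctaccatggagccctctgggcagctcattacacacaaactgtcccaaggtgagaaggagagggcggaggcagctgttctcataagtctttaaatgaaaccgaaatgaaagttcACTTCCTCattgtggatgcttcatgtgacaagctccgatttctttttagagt

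That match began 2 bases before the annotated start. The same letters, on either strand, were in 1052 of 32851 promoters of this length (3.2%), and they were not in those of Lgals3, Lilr4b or Mpeg1. A match in letters is a description and does not show a bound site.

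Lgals3, which encodes the secreted lectin galectin-3, read 2590.5, 3409.1 and 3879.2 on the dko arrays, against 320.5, 1323.5 and 984.2 on the mdx arrays. The groups did not overlap, and mdx array 1 was far below the other two. Lgals3 rose by 1.86 (SE 0.26, adjusted p = 0.0333). Mpeg1, which encodes the macrophage pore-forming protein perforin-2, read 4881.4, 4201.4 and 4172.9 in dko and 2205.4, 1576.8 and 1084.9 in mdx. Again every dko value was above every mdx value, and the rise was 1.40 (SE 0.22, adjusted p = 0.0481). A second Mpeg1 probe set, 162075_r_at, was too dim to test. Lilr4b, an immunoglobulin-like receptor of myeloid cells, read 1864.9, 2086.7 and 783.4 in dko and 325.1, 617.3 and 256.7 in mdx. Array 3 was the lowest in both genotypes, the groups did not overlap, and the rise was 1.58 (SE 0.23, adjusted p = 0.0371).

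The list of macrophage genes held 37 genes, of which 32 were on the array and 28 passed the filter on dim signals. Of these 28, 4 rose, 0 fell and 24 did not pass; 25 differences were positive and the median was 0.64. In 22 genes dko was the higher in 3 of 3 pairs, and in 16 every dko array was above every mdx array. Over all probe sets tested these shares were 14.6% and 2.99%, with 48.8% of the differences positive and 0.135% called higher. The list holds the 4 called genes and was written with earlier results of these data known, so its counts are a description and not a test. The summed intensity of the 28 genes was 75400 to 79770 on the dko arrays and 33590 to 43950 on the mdx arrays. The medians of the 3 pairs were 0.78, 0.49 and 0.87, so that no pair carried the direction alone. In whole muscle, more macrophages and more RNA per macrophage cannot be told apart.

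Members of the list that did not pass had values on the same side. Cd68, the lysosomal glycoprotein often used to count macrophages, read 2813.8, 2433.4 and 2042.1 in dko and 1608.6, 1144.5 and 833.7 in mdx, a difference of 0.96 (adjusted p = 0.152). Lyz2, macrophage lysozyme, read 13332.3, 15999.8 and 11530.7 in dko and 5842.0, 7723.4 and 5345.3 in mdx (1.10, adjusted p = 0.0938). Tyrobp, an adaptor of activating myeloid receptors, read 2219.7, 4384.8 and 2837.1 in dko and 774.8, 1507.8 and 957.3 in mdx (1.40, adjusted p = 0.0839). Groups of Cd68, Lyz2 and Tyrobp did not overlap. Cd53, a leukocyte tetraspanin, had a difference of 1.55, and Csf1r, the receptor for the macrophage growth factor, one of 0.51. Adgre1, which encodes the F4/80 antigen, differed by 1.41 and 1.28 in pairs 1 and 3 and by -0.22 in pair 2. Fcgr3 (-0.24), Pirb (-0.10) and Cybb (-0.05) were the 3 members with negative values.

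**Figure D3:**
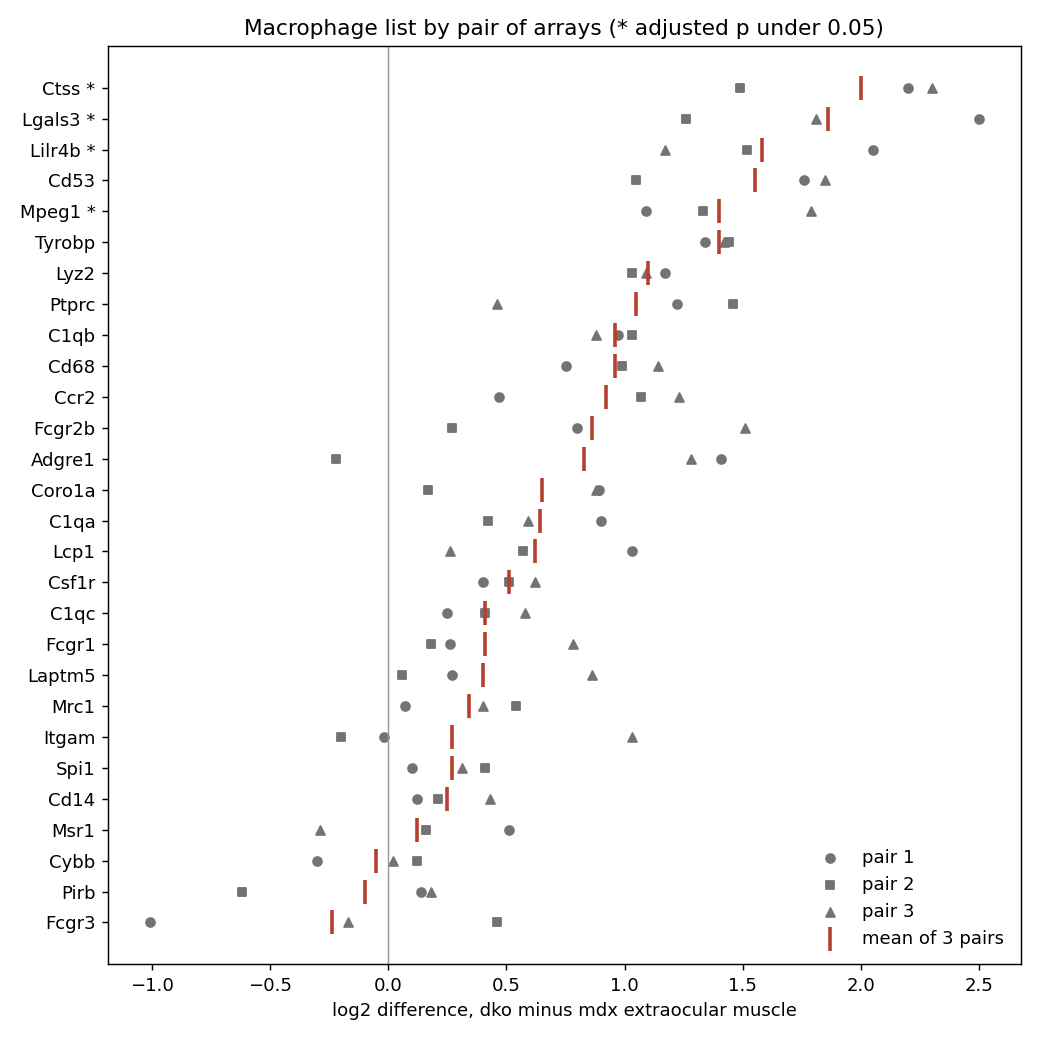
Log2 difference of each of the 28 macrophage genes tested in extraocular muscle, dko minus mdx (horizontal axis), for pair 1 (circles), pair 2 (squares) and pair 3 (triangles), with the mean as a red line. Stars mark the 4 genes with an adjusted p under 0.05; 25 means lie right of zero.

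No cathepsin other than Ctss was called. Of 23 lysosomal and cathepsin genes tested, 1 rose (Ctss) and 22 did not pass, with 22 positive differences and a median of 0.17. Over all probe sets tested, 48.8% of the differences were positive and 0.135% were called higher. Ctsc, which activates serine proteases of immune granules, had a difference of 0.46, and Ctsh, Ctsl, Ctsz and Ctsb had 0.34, 0.29, 0.28 and 0.20. Ctsd, the lysosomal aspartic protease of most cell types, had 0.06. The S100 family had a similar form: S100a4 rose and the other 8 of 9 members tested did not pass. S100a4, a calcium-binding protein of fibroblasts and macrophages, read 3796.0, 3406.5 and 3282.2 in dko and 1355.0, 1557.7 and 1522.8 in mdx. Both groups were tight and far apart, with a rise of 1.15 (SE 0.16, adjusted p = 0.0316). S100a8, a neutrophil and monocyte protein, had a difference of 0.40, S100a10 had 0.28, S100a6 had 0.27 and S100a5 had -0.57.

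Ms4a6c, a member of the membrane-spanning 4A family, read 1499.9, 831.5 and 752.2 in dko and 531.2, 435.2 and 183.2 in mdx. It rose by 1.13 (SE 0.16, adjusted p = 0.0333), and array 1 was the highest in both genotypes. The suffix of this probe set, 102104_f_at, marks probes that can match related family members.

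No chemokine or complement gene was called in the limma fit. Of 13 chemokine and cytokine genes tested among 25 on the array, 0 passed in either direction. Their median was 0.41, 11 differences were positive and 7 had an unadjusted p under 0.05, all higher. Over all probe sets tested, 48.8% of the differences were positive and 4.14% were higher at that unadjusted p. Ccl2, the main attractant of monocytes, read 1177.8, 1424.0 and 1579.6 in dko and 100.6, 606.1 and 622.7 in mdx. Its groups did not overlap, yet its difference of 1.51 did not pass (adjusted p = 0.185), with mdx array 1 far below the other mdx arrays. Ccl7, another monocyte attractant, had a difference of 1.16 (adjusted p = 0.234), and Ccr2, the receptor of both, had 0.92 (adjusted p = 0.289). Of 12 complement genes tested, 0 passed and 5 had an unadjusted p under 0.05, all higher, with a median of 0.16 (0.06 without pair 1 and 0.30 without pair 2). C3ar1, the receptor for the complement fragment C3a, had a difference of 1.12 (adjusted p = 0.103), and C1qb, a subunit of the first component, had 0.96 (adjusted p = 0.285).

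Interferon response genes lay on the other side. Of 16 tested, 0 passed, 14 differences were negative and the median was -0.18 (-0.32 without pair 2 and -0.08 without pair 3). Of the 16, 4 had an unadjusted p under 0.05, all lower. Over all probe sets tested, 48.8% of the differences were positive and 3.93% were lower at that unadjusted p. The direction was not particular to extraocular muscle, since the median of the list in heart was -0.21, with 2 positive differences. Ifit1, an interferon-induced protein that binds viral RNA, read 74.3, 93.5 and 128.6 in dko and 257.9, 269.4 and 400.8 in mdx. These groups did not overlap, and the difference of -0.83 did not pass (adjusted p = 0.448). Gbp2, an interferon-induced GTPase, had a difference of -0.48 and Ifit2 one of -0.45. Summed intensity of the list was 11980 to 17130 in dko and 16060 to 18410 in mdx, so that the sums overlapped. Antigen presentation genes had a median of -0.01 over 17 tested, 0 of them called. Their largest value was that of the class II chain H2-Aa, which read 4140.5, 3261.3 and 4865.2 in dko and 1543.0, 2289.7 and 3165.4 in mdx (0.80, adjusted p = 0.289).

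Markers of other leukocytes were mostly too dim to test. Of 12 T cell genes on the array 5 were tested, with 0 called and a median of 0.37, which was 0.09, 0.21 and 0.12 without the pairs numbered 1, 2 and 3. Of 8 B cell genes 6 were tested, with 0 called and a median of 0.09, which was 0.30 without pair 1 and -0.03 without pair 3. Neutrophil genes had a median of -0.23 over 6 tested, and mast cell genes 0.03 over 5 tested, with 0 called in both. The T cell co-receptor Cd4 differed by 1.38 in pair 1 and by -0.06 and 0.02 in pairs 2 and 3.

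Among genes of the muscle fibre itself, Myom2 rose. It encodes M-protein, which crosslinks thick filaments at the M-band of fast fibres, and it read 1506.6, 1433.4 and 1128.3 in dko and 352.4, 433.0 and 478.5 in mdx. The groups were well apart, the rise was 1.37 (SE 0.15, adjusted p = 0.0316), and Myom2 was called with and without the block. Both extraocular groups lay far below leg muscle, where Myom2 averaged 11130 ± 2133 in dko and 11620 ± 1962 in mdx (SD, n = 3 each). Myom1, which encodes the M-band protein myomesin, read 18145.0, 17316.9 and 19106.3 in dko and 18502.5, 13430.4 and 19655.3 in mdx (0.10, adjusted p = 0.932), with overlapping groups. Of 11 M-band and Z-disc genes tested, 1 rose (Myom2) and 10 did not pass, with 9 positive differences and a median of 0.20. Among all probe sets tested, 0.135% were called higher and 48.8% of the differences were positive. The Z-disc crosslinker Actn2 had the lowest value, reading 170.5, 320.2 and 1078.9 in dko and 1094.7, 964.3 and 1487.5 in mdx. Its difference of -1.18 did not pass (adjusted p = 0.449), and dko array 3 was above mdx array 2.

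Ankrd1 encodes an ankyrin repeat protein that binds titin in the I-band and also enters the nucleus, and it is known to be induced by stretch. It read 1227.5, 1503.4 and 1703.8 in dko and 219.2, 440.1 and 596.2 in mdx. Values ran in the same order of arrays in both genotypes and did not overlap, and the rise was 1.54 (SE 0.20, adjusted p = 0.0316). Ankrd2, its relative in slow muscle, had a difference of 0.07 (adjusted p = 0.971). Of 12 stretch response genes tested, 1 rose (Ankrd1), 0 fell and 11 did not pass, with 4 positive differences and a median of -0.07. Shares over all probe sets tested were 0.135% called higher and 48.8% positive. Nrap, an actin-binding protein of the myotendinous junction, had a difference of 0.38, and Csrp3, a Z-disc protein, had 0.20. The Ankrd1 promoter is shown as the one called member of that list, read on the minus strand of GRCm38.p6 at chr19:36119795-36120094, with capitals at the reverse complement of CATTCC, the MCAT letters bound by TEAD factors.
Ankrd1 promoter: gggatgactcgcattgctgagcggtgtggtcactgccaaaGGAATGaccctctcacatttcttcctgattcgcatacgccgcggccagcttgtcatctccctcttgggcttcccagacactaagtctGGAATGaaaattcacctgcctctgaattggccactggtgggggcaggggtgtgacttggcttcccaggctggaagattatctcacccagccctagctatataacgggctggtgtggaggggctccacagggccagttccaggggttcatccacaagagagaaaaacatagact

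The letters occurred 2 times, beginning 210 and 123 bases before the annotated start. On either strand CATTCC was in 4817 of 32851 promoters (14.7%), and the 2 motifs searched share no overlap in these promoters.

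Myl4, the essential light chain of embryonic and atrial myosin, also rose. Its probe set 160487_at read 7517.9, 9236.1 and 12933.2 in dko and 1614.3, 3349.0 and 6991.9 in mdx. The lowest dko array was above the highest mdx array by a small margin, and array 3 was the highest in both genotypes. The rise was 1.47 (SE 0.20, adjusted p = 0.0325). The other Myl4 probe set, 100828_at, had a difference of 0.52 with overlapping groups and did not pass (adjusted p = 0.631). Of 20 embryonic and regeneration genes tested, 1 rose (Myl4), 0 fell and 19 did not pass, with 11 positive differences and a median of 0.04. The count of positive differences was near the share over all probe sets tested, 48.8%, of which 0.135% were called higher. Chrng, the fetal subunit of the acetylcholine receptor, read 1121.0, 1350.1 and 1608.0 in dko and 563.6, 175.8 and 1205.3 in mdx (1.11, adjusted p = 0.373), with overlap at mdx array 3. Perinatal myosin Myh8 read 6517.3, 6537.5 and 8629.1 in dko and 3690.7, 4292.9 and 5217.2 in mdx. Its groups did not overlap, and its difference of 0.70 did not pass (adjusted p = 0.292). Embryonic myosin Myh3 had a difference of -0.20, and the myogenic factors Myog, Myf5 and Myod1 had 0.29, -0.04 and -0.16.

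Kcne1l encodes an accessory subunit of voltage-gated potassium channels. It read 741.4, 409.2 and 1333.2 in dko and 175.2, 83.8 and 522.5 in mdx. The groups overlapped, because mdx array 3 was above dko array 2, but each dko array was above the mdx array of its number, and the rise was 1.24 (SE 0.17, adjusted p = 0.0316). Without the block its adjusted p was 1.

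Medians of fibre type, calcium handling and energy genes were close to the background. Fast fibre genes had a median of 0.07 over 12 tested and slow fibre genes 0.06 over 10, with 0 called in both. The fast fibre list split by pair, with medians of -0.27, 0.26 and 0.31 in pairs 1, 2 and 3. Its median was 0.28 without pair 1 and -0.04 without pair 3. Calcium handling genes had a median of 0.05 over 10 tested, 0 called. Among them Cacng1, the gamma subunit of the muscle calcium channel, read 2057.4, 1411.6 and 2068.2 in dko and 1145.9, 995.5 and 1146.3 in mdx (0.66, adjusted p = 0.185). Oxidative phosphorylation had a median of -0.01 over 30 genes, fatty acid oxidation -0.07 over 15 and glycolysis 0.03 over 15, with 0 called in each. The 14 genes of the dystrophin complex had a median of 0.02 and 0 called. Utrn stood in that list by 92508_s_at, the probe set with the higher mean over all 18 arrays, and not by the called 92507_at. Sgcd, a sarcoglycan, had 0.38 and Nos1, the nitric oxide synthase held by the complex, -0.52.

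At the neuromuscular junction, where utrophin is normally concentrated, 10 genes were tested, 0 were called and the median was 0.03. Beside Chrng, the largest value was that of Colq, the collagen tail of acetylcholinesterase, at 0.74. That value came mostly from mdx array 3, which read 236.6, against 953.8 and 817.2 on mdx arrays 1 and 2 and 1121.0, 1056.7 and 1146.8 on the dko arrays.

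Genes of cell division and of the matrix had more positive than negative values, with no call. Of 23 cell division genes tested, 0 passed, 22 differences were positive and the median was 0.26. Of the 23, 6 had an unadjusted p under 0.05, all higher. Over all probe sets tested, 48.8% of the differences were positive and 4.14% were higher at that unadjusted p. Rrm1, a subunit of ribonucleotide reductase, read 733.4, 324.6 and 692.4 in dko and 220.8, 169.7 and 263.6 in mdx (0.92, adjusted p = 0.0816). Its groups did not overlap, with array 2 the lowest in both genotypes. Cdk1, the kinase that starts mitosis, differed by 1.41 and 1.36 in pairs 1 and 3 and by 0.03 in pair 2. Of 42 matrix genes tested, 0 passed, 30 differences were positive and the median was 0.11. Mmp12, the macrophage elastase, had differences of 1.69 and 1.15 at its 2 probe sets (adjusted p = 0.234 for 95339_r_at). Probe set 95339_r_at read 4151.4, 2895.7 and 1002.4 in dko and 365.6, 2295.3 and 184.8 in mdx, so that its groups overlapped. Postn, a matrix protein of fibroblasts, read 10265.9, 10075.3 and 9783.7 in dko and 5986.3, 5899.9 and 5603.3 in mdx. Both groups were tight and apart, and the difference of 0.77 did not pass (adjusted p = 0.289). Lox, which crosslinks collagen, had 1.10, and Fmod, a collagen-binding proteoglycan, had -0.89.

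**Figure D4:**
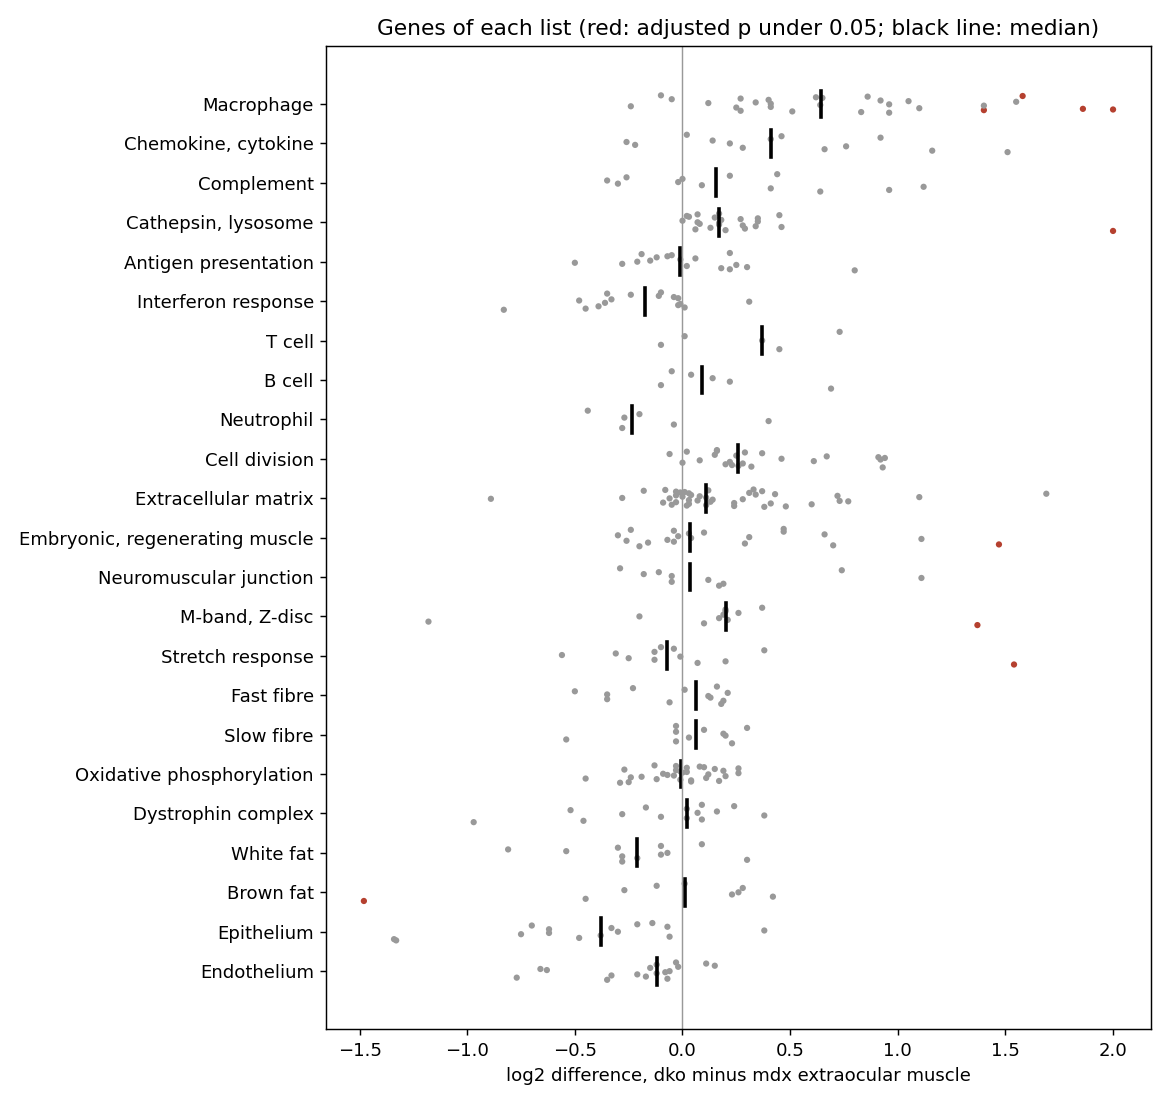
Log2 difference, dko minus mdx extraocular muscle (horizontal axis), of every tested gene in 23 of the 38 lists, with 1 point per gene and a black line at each list's median. Red points are genes with an adjusted p under 0.05; medians run from -0.38 for epithelium to 0.64 for macrophage.

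Ucp1, the uncoupling protein that marks brown fat, was the other gene that fell. Probe set 99507_at read 52.3, 238.6 and 889.5 in dko and 538.1, 1207.2 and 1952.6 in mdx. Array 1 was the lowest and array 3 the highest in both genotypes, and the groups overlapped, while each dko array was below the mdx array of its number. The log2 difference was -1.48 (SE 0.20, adjusted p = 0.0316; 1 without the block), 2.8-fold lower in dko. The second Ucp1 probe set, 161422_f_at, read 315.8, 271.6 and 307.0 in dko and 347.4, 494.2 and 497.1 in mdx (-0.39, adjusted p = 0.653). Cidea, a lipid droplet protein of brown fat, had a difference of -0.45 (adjusted p = 0.3), and the 9 brown fat genes tested had a median of 0.01, with 0 other calls. Their summed intensity, mostly from genes other than Ucp1, was 53070 to 86500 in dko and 55640 to 89570 in mdx. How far that median reads brown fat was not tested. White fat genes had a median of -0.21 over 11 tested, 9 of them negative and 0 called, and their summed intensity was 47340 to 54060 in dko and 57970 to 65890 in mdx. Among all probe sets tested, 48.8% of the differences were positive. Fasn, fatty acid synthase, had -0.81, and Adipoq, the fat cell hormone adiponectin, had -0.28. Whether the amount of fat in the samples had a part in the Ucp1 value was not tested.

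Genes of epithelium were lower by value, with 0 of 15 called, 14 differences negative and a median of -0.38. Of the 15, 6 had an unadjusted p under 0.05, all lower. Over all probe sets tested, 48.8% of the differences were positive and 3.93% were lower at that unadjusted p. The direction was not particular to extraocular muscle. The list had a median of -0.16 in leg, with 6 positive differences, and of -0.20 in heart, with 3. In those tissues 44.7% and 47.5% of all probe sets tested were positive. Krt19, a keratin of simple epithelia, read 68.5, 219.6 and 293.2 in dko and 293.8, 1383.8 and 762.0 in mdx. Its difference of -1.33 did not pass (adjusted p = 0.0816), and dko array 3 came just under mdx array 1. Sfn, an epithelial protein also called stratifin, read 146.9, 182.9 and 328.0 in dko and 648.6, 746.9 and 1026.7 in mdx. Its groups were apart and its difference of -1.34 did not pass (adjusted p = 0.289). The summed intensity of the list was 8123 to 10330 in dko and 10580 to 14210 in mdx, without overlap. Gland genes had a median of -0.15 over 7 tested, retina and pigment genes -0.32 over 5, endothelial genes -0.12 over 17, smooth muscle genes -0.15 over 8 and Schwann cell genes 0.12 over 8, with 0 called in each. The endothelial median was alike in the other tissues, at -0.11 in leg and -0.09 in heart. The retina median was -0.20 without pair 1 and -0.17 without pair 3, and that of gland genes was -0.27 without pair 2. Tendon and cartilage genes had -0.23 and erythroid genes -0.14, each over 3 tested with 0 called. The erythroid median was -0.01, -0.45 and 0.11 without pairs 1, 2 and 3, so that its size and sign depended on single pairs. Kdr, the main receptor for vascular endothelial growth factor, read 685.5, 684.4 and 600.1 in dko and 1432.7, 1137.5 and 1152.1 in mdx, a difference of -0.77 (adjusted p = 0.234) between groups that did not overlap. The part of such neighbouring tissue in the calls was not tested.

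Other probe sets with an unadjusted p under 0.01 and the same sign in 3 of 3 pairs did not pass. On the higher side were Ly86, a partner of a Toll-like receptor homologue on leukocytes (1.21, adjusted p = 0.0816), Socs3, a feedback inhibitor of cytokine signalling (1.32, adjusted p = 0.289), Slfn2 (1.14, adjusted p = 0.12) and Srpx (1.17, adjusted p = 0.25). On the lower side were Pglyrp1, which binds bacterial peptidoglycan (-1.27), Cyp2c39 (-1.22), Cpxm2 (-1.06), Fgf11 (-1.02), the keratin Krt7 (-1.01), Gsto1 (-0.99), Ccnt1 (-0.99) and the proteasome subunit Psmb4 (-0.98). Adjusted p on the lower side ran from 0.122 (Psmb4) to 0.373 (Cyp2c39). Slfn2 read 472.1, 884.1 and 846.6 in dko and 219.1, 210.4 and 266.0 in mdx, without overlap. Psmb4 read 178.1, 187.6 and 133.6 in dko and 698.1, 546.7 and 290.4 in mdx, which did not overlap either.

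The largest rise of all belonged to 97519_at, which has no gene symbol in the probe table used. It read 9511.9, 10125.7 and 9077.2 in dko and 1465.7, 2813.5 and 1327.8 in mdx, a rise of 2.33 (SE 0.34, adjusted p = 0.0341), or 5.02-fold. The dko arrays were close together and all above the mdx arrays. Probe set 102914_s_at, listed with several symbols, read 2202.7, 1940.9 and 1739.9 in dko and 957.8, 606.8 and 459.5 in mdx. It rose by 1.38 (SE 0.17, adjusted p = 0.0316), again without overlap.

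The same contrast in leg muscle and heart shows where the extraocular values stood. In leg, 107 of 8888 probe sets were called (1.2%), 90 higher (1.01%) and 17 lower (0.191%), and without the block 5 were (0.0563%). In heart 0 were called by limma, with 494 at an unadjusted p under 0.05 (5.56%). Of the 14 probe sets called in extraocular muscle, 4 were also called in leg, namely Kcne1l (1.80, adjusted p = 0.00193), S100a4 (0.78, adjusted p = 0.0476), Myl4 (1.21, adjusted p = 0.0262) and Ms4a6c (0.94, adjusted p = 0.0278). Of the 12 that rose, 11 had a positive value in leg and 10 in heart, where 44.7% and 47.5% of all probe sets tested were positive. Ctss differed by 1.09 in leg (adjusted p = 0.0581) and by 0.26 in heart. Myom2 differed by -0.07 in leg (adjusted p = 0.861) and by 0.40 in heart. Utrn 92507_at differed by -0.61 in leg (adjusted p = 0.0602) and by -0.93 in heart (adjusted p = 0.128).

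**Figure D5:**
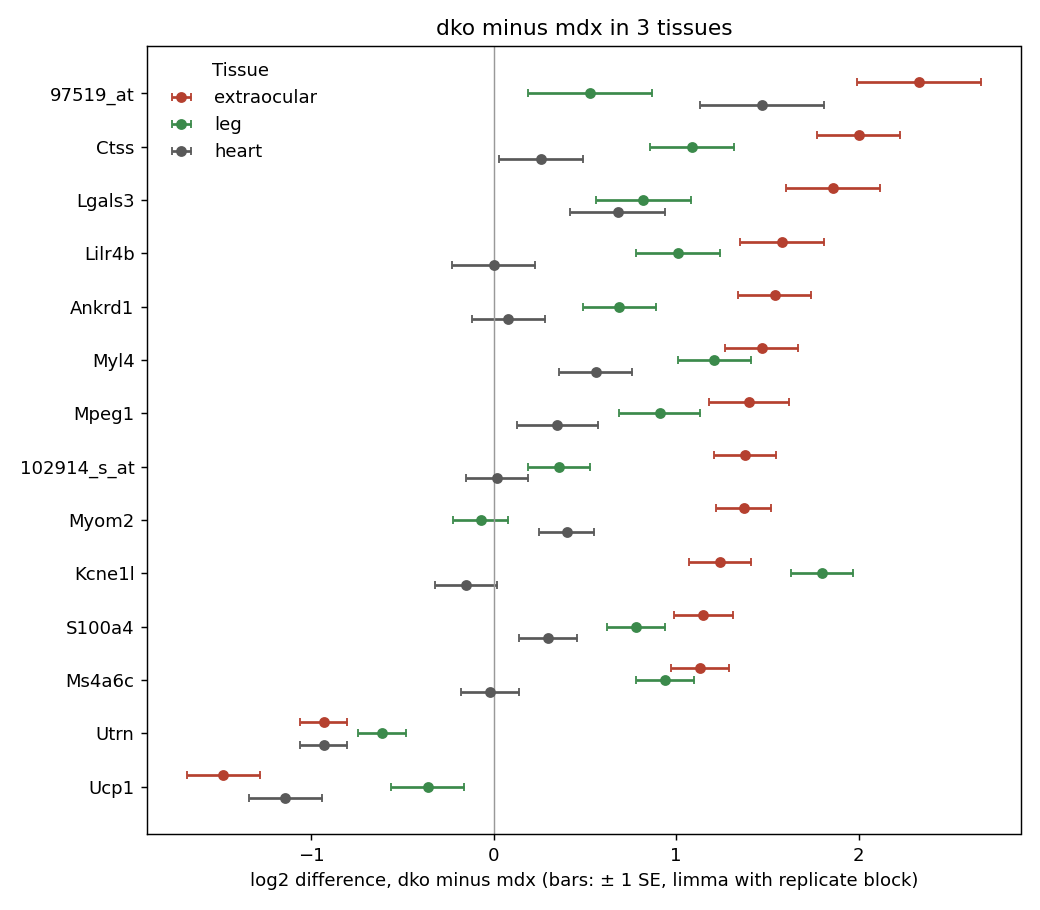
Log2 difference, dko minus mdx, of the 14 called probe sets in extraocular muscle (red), leg (green) and heart (grey), with bars of 1 standard error from the limma fit with the replicate block. Extraocular points lie farthest from zero for most genes; Kcne1l is larger in leg (1.80), and Utrn is equal in heart (-0.93).

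The difference between tissues was itself tested, and none of the 14 passed it. Adjusted p for extraocular minus leg ran from 0.0892 (Myom2) to 0.843 (Ms4a6c), and for extraocular minus heart from 0.37 to 0.999. Over all probe sets tested, 3 had a change that differed between extraocular muscle and leg (0.0338%), each lower in extraocular muscle, and 0 differed between extraocular muscle and heart, where 530 had an unadjusted p under 0.05 (5.96%). The 3 were Tnnc1, Myl2 and 98501_at, the last without a symbol.

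Tnnc1, slow and cardiac troponin C, read 10631.9, 13264.3 and 22242.0 in dko and 10274.0, 13033.3 and 21980.7 in mdx extraocular muscle. The pairs nearly coincided, with a difference of 0.03. In leg it read 11873.8, 9671.9 and 14006.1 in dko and 2344.1, 1360.8 and 2348.2 in mdx, a difference of 2.48. The extraocular change minus the leg change was -2.45 (SE 0.23, limma adjusted p = 0.0084). Myl2, the slow and ventricular regulatory light chain, read 16835.5, 12742.2 and 33419.1 in dko and 14182.0, 16891.6 and 31770.6 in mdx extraocular muscle. That is a difference of -0.03 with overlapping groups, against 4.05 in leg, and the difference between the tissues was -4.07 (SE 0.52, adjusted p = 0.0481). Of the 10 slow fibre genes tested, 0 were called in extraocular muscle, with a median of 0.06, and 7 were called higher in leg, with a median of 1.65. Among all probe sets tested, 0.158% were called in extraocular muscle and 1.01% were called higher in leg. Probe set 98501_at had -0.39 in extraocular muscle and 1.28 in leg, a difference of -1.68 (SE 0.21, adjusted p = 0.0481). These 3 calls depended on the pairing too: without the block 0 passed, and 180 had an unadjusted p under 0.05 (2.03%). With the block 0 passed when any 1 extraocular array was left out (smallest adjusted p 0.0718, with 706 to 739 at an unadjusted p under 0.05).

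Gene lists stood in a different order in the 3 tissues, given here as medians with no test. Macrophage genes had medians of 0.64 in extraocular muscle, 0.83 in leg and -0.03 in heart, with 4 called higher in extraocular muscle, 4 in leg and 0 in heart. Calls were more frequent in leg as a whole. Among all probe sets tested, 0.135% were called higher in extraocular muscle, 1.01% in leg and 0 in heart. Matrix genes had 0.11, 0.44 and 0.05 in the same order of tissues, with 0, 7 and 0 called higher. Embryonic and regeneration genes had 0.04, 0.47 and -0.04, with 1, 4 and 0 called higher. For Myh3 the difference was -0.20 in extraocular muscle and 2.04 in leg. Its mdx level already covered 9979.7 to 21624.8 in extraocular muscle, above most leg values. Cell division genes had 0.26, 0.16 and -0.08, and interferon response genes -0.18, -0.02 and -0.21.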

How the data were processed

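Total RNA was measured on 18 mouse expression arrays of 12488 probe sets, 66 of them controls. The deposited values are intensity on a linear scale, scaled by the authors to a mean, with 2% trimmed from each tail, of 1500.69 to 1501.15, as read from the values; software and detection calls are not given in the sources used here. Replicate number limits the precision. A probe set was kept when 3 or more of the 18 arrays put it over their 40th percentile (8888 kept, 7977 with 1 symbol in the supplied probe table). The offset of 166.7 is the median 25th percentile over arrays. On the log2 values limma 3.58.1 in R 4.3.3 fitted group means and blocked on number within tissue (9 blocks, 6 residual and 3.79 prior degrees of freedom). Tests were two-sided. The 66 control probe sets were fitted apart by limma for the extraocular difference, with p adjusted over those 66 alone. Of them 0 had an adjusted p under 0.05 (smallest 0.921). The labels give the same numbers in each group without saying what they mark, and the pairing rests on the correlations given above. These were 0.404 to 0.741 for arrays of the same number and -0.628 to 0.139 for arrays of different numbers. Deviations within a group sum to zero, so the correlations of same and different numbers are not independent. The script was tested on simulated data.

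Named genes were all called probe sets; the 10 highest and 10 lowest others with an unadjusted p under 0.01 and the same sign in 3 of 3 pairs; the first 3 measured and up to 3 largest members of each of 38 lists; all Utrn and Dmd probe sets; probe sets whose change differed between tissues; and relatives of called genes. The named members beyond that rule, and the genes of the tissue check, were chosen after their values were seen. The members and lists were chosen with earlier results of these data known. A gene's tested probe set of highest mean over the 18 arrays stood for it in a list. Promoters of 5 called genes matched the RefSeq table by symbol. Alternatives varied the block, filter, offset, normalization, variance model and arrays. Figures used matplotlib 3.10.9 in Python 3.11.15.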

Additional observations from a re-analysis of the deposited data

Results flagged for a closer look

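The dko minus mdx change differed between extraocular muscle and leg, by a test of the difference itself, for 3 probe sets. The extraocular change minus the leg change was -2.45 for Tnnc1, -4.07 for Myl2 and -1.68 for 98501_at (limma adjusted p of 0.0084, 0.0481 and 0.0481). None of the 3 passed without the replicate block (smallest limma adjusted p 0.0851) or with any 1 extraocular array left out (smallest 0.0718). Groups of 3 arrays are too small for the separate check on single outlying samples, which was not run.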

How the results depend on the processing

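The calls depended on how the spread was estimated. With 12 higher and 2 lower in the fit described above, the fit without the replicate block gave 2 and 0 (76 lower at an unadjusted p under 0.05), and a fit of only the 6 extraocular arrays with the replicate block gave 0 and 0 (365 and 299 unadjusted). Without the arrays numbered 3 of all groups 0 and 0 passed (312 and 274 unadjusted). Leaving out 1 extraocular array gave 0 to 4 higher and 0 lower. Without the filter 7 and 1 passed, an offset of 50 gave 7 and 4, trend and robust options left 1 lower, and an adjusted p under 0.1 gave 5 lower. The other counts were within 1.5 times.

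The 3 differences between extraocular muscle and leg became 0 without the replicate block or without the arrays numbered 3, 1 without the filter or with an offset of 50, 5 with a block common to all arrays, with a filter at the 60th percentile or with an offset of 400, 6 at an adjusted p under 0.1 and 8 with trend and robust options. Against heart 0 passed in every setting tried, with 124 to 719 at an unadjusted p under 0.05.

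The log2 difference of Utrn 92507_at, -0.93, cannot be moved by the block, the filter, the variance model or leaving out the other tissues. Only its limma adjusted p can change. That was 0.438 without the replicate block, 0.338 in the 6 extraocular arrays alone, 0.0506 without the filter and 0.117 with trend and robust options. The difference was -1.15 with an offset of 50 and -0.68 with an offset of 400. Without the arrays numbered 3 it was -0.84 (adjusted p = 0.518), and with 1 extraocular array left out it was -1.05 to -0.84. The probe set was too dim to be tested with the filter at the 60th percentile. Of the 14 called probe sets, 14 were called with scaling to the 75th percentile or an offset of 400, and 12 with quantile normalization. None changed sign. For fits that left out arrays or the block this was fixed in advance by the same sign in 3 of 3 pairs. List medians changed sign for 2 of 38 lists under quantile normalization, brown fat and glycolysis, both near zero, and for 4, 5 and 7 lists without both arrays numbered 1, 2 and 3, erythroid and B cell among the last. The macrophage, chemokine, cell division, interferon, epithelium and white fat lists were not among them. Signal over background limits dim probe sets, and 3 arrays a group limit all of these values.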

Other observations

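Genes induced by glucocorticoids and fasting split by pair in extraocular muscle. The list's medians were 0.65, -0.26 and 0.58 in pairs 1, 2 and 3, with 0 of 14 genes called. Mt2, a metal-binding stress protein, read 26108.8, 13963.6 and 24867.7 in dko and 9396.5, 15344.9 and 9034.6 in mdx. Fkbp5, a chaperone of the glucocorticoid receptor, read 5459.0, 2486.2 and 5229.9 in dko and 2515.8, 2714.3 and 1586.2 in mdx. For both genes dko arrays 1 and 3 lay above every mdx array and dko array 2 did not, and neither passed (adjusted p = 0.566 and 0.694). Immediate early genes, which respond within minutes of handling or injury, had a median of 0.04 over 13 tested, with 0 called.

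Echs1, an enzyme of fatty acid oxidation, read 4504.7, 4923.2 and 5152.8 in dko and 6275.7, 7236.9 and 8039.5 in mdx. Its difference of -0.54 did not pass (adjusted p = 0.425), although the groups were apart and the pairs were alike at -0.46, -0.54 and -0.63.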
